A study of Salix matsudana with 3 samples.

Results

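miR396 is a conserved plant microRNA family, and 5 of the 205 miRNA entries in a small RNA survey of Salix matsudana, the Chinese willow, carry its family number. These 5 entries were taken by that number alone, and the same number marks 38 of 981 pairs in a degradome table, where a pair is a miRNA entry with 1 of its cleavage sites. All samples came from roots and stems of 30-day-old plants. The salt library came from plants kept for 2 days with NaCl at 100 mmol per litre, and the untreated library from plants without added salt. A degradome library, in which the ends of cleaved messenger RNA are read, came from a mixture of salt and untreated RNA. With 1 library per condition there is no replicate check, no test between conditions was possible, and every interval covers counting error only. No untreated library at 2 days was analysed here, so salt and elapsed time cannot be told apart. In whole organs, fewer cells of a type and less RNA per cell cannot be told apart either.

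In plants the mature strand of miR396 comes from the 5p arm of its hairpin. It guides ARGONAUTE to messenger RNAs of growth-regulating factors (GRFs), transcription factors that act with GIF co-activators to keep cells of young organs dividing. In Arabidopsis, TCP factors, which are themselves limited by miR319, raise miR396 as organs mature. The 3p arm is the partner strand that is usually degraded. Plant miRNAs pair along most of their length with the target, and the cut is counted from the 5′ end of the miRNA, so a variant with a shifted 5′ end points to a shifted cut.

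The 5 mature sequences are shown because the entries differ in arm and, within an arm, in where they start, which decides the expected cut. They are written 5′ to 3′ as deposited, with the seed, bases 2 to 8, in capitals.
mes-miR396c: tTCCACAGctttcttgaactt
gma-miR396a-5p_L+1: cTTCCACAgctttcttgaactg
hbr-miR396a_R-3: cACAGCTTtcttgaactt
ptc-miR396e-3p: cTCAAGAAagctgtgggaga
csi-miR396c_L+1_1ss11TG: gTTCAAGAaagctgtgggaag
The first 3 are 5p sequences. The soybean-named gma-miR396a-5p_L+1 has 22 bases, starts 1 base before the 21-base, cassava-named mes-miR396c and carries 1 substitution against it, T21G, counted from the 5′ end of mes-miR396c. The rubber-tree-named hbr-miR396a_R-3 has 18 bases, starts 3 bases later and otherwise matches mes-miR396c over its whole length. The last 2 are 3p sequences. The citrus-named csi-miR396c_L+1_1ss11TG bears no arm in its name, but it shares a stretch of 17 bases with ptc-miR396e-3p, named for poplar, and only 4 with gma-miR396a-5p_L+1. A stretch of 15 bases in ptc-miR396e-3p, and of 17 bases in the citrus-named entry, is complementary to mes-miR396c. The 5 entries hold 5 different seeds, and no 2 of them share a sequence. mes-miR396c and ptc-miR396e-3p stand under the same precursor index, as the arms of 1 hairpin.

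The family as a whole took a smaller part of the listed reads in the salt library. It held 4192 of 734026 listed reads in the salt library and 82014.17 of 4622984 in the untreated library. Relative to 1000000 listed reads, a unit written RPM here, that was 5711 RPM in the salt and 17741 RPM in the untreated library. In the salt library the family's share was thus 3.11-fold lower (95% exact counting interval 3.01 to 3.21). Among 76 numbered families miR396 stood at place 14 in the salt library and at place 8 in the untreated library. The untreated library had 6.3 times as many listed reads, so that 1 read was worth 1.362 RPM in the salt and 0.216 RPM in the untreated library.

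The main 5p strand, the one known to cut GRF messenger RNAs, carried this difference. mes-miR396c had 2658 estimated reads, or 3621 RPM, in the salt library, against 74031 reads, or 16014 RPM, in the untreated library. It was 4.42-fold lower in the salt library (4.25 to 4.60), and the counting intervals of both libraries lay far apart. Its place among the 205 entries was 20 in the salt and 8 in the untreated library.

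The longer 5p variant stood the other way. gma-miR396a-5p_L+1 had 489 estimated reads, or 666 RPM, in the salt library, against 1086 reads, or 235 RPM, in the untreated library. It was 2.84-fold higher in the salt library (2.54 to 3.16), and it fell below 2-fold, at 0.53 log2, when the 5 most abundant entries were left out of the total. The summed share of its 22-base length class, over entries of every family, was also larger in the salt library. Such a sum can rest on a few abundant entries. Entries of 22 bases held 40.4% of listed reads in the salt and 14.8% in the untreated library, and entries of 21 bases held 46.2% and 54.4%. Of 24 entries of 22 bases that averaged 10 RPM or more, 10 were higher in the salt library by 2-fold or more and 1 was lower, with a median log2 ratio of 0.69. Of 64 such entries of 21 bases, 19 were higher and 8 lower, with a median of 0.23. Over all 115 entries of any length at that level, 32.2% were higher and 13% lower, with a median of 0.33. The part of length in the result was not tested.

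The 3p strand differed little between libraries at this scaling. ptc-miR396e-3p had 1043 reads, or 1421 RPM, in the salt library, against 6874 reads, or 1487 RPM, in the untreated library. The salt level was 1.05-fold lower, with an interval of 0.980 to 1.12 that includes equal levels. The direction of this small difference turned with the scaling, from -1.04 log2 without the 5 most abundant entries to 0.15 without possible rRNA or tRNA fragments.

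The remaining 2 entries were rare. hbr-miR396a_R-3 had 1.5 estimated reads, or 2.04 RPM, in the salt library, with a Poisson interval of 0.330 to 9.84 RPM, against 18.3 reads, or 3.97 RPM, in the untreated library (2.31 to 6.15). After rounding to whole reads its share was 1.43-fold lower in the salt library, with an interval from 0.342 to 12.7. csi-miR396c_L+1_1ss11TG had 1 read, or 1.36 RPM, in the salt library and 5 reads, or 1.08 RPM, in the untreated library, a 1.26-fold higher share with an interval from 0.0266 to 11.3. A difference was not detectable at this depth for either entry.

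**Figure D1:**
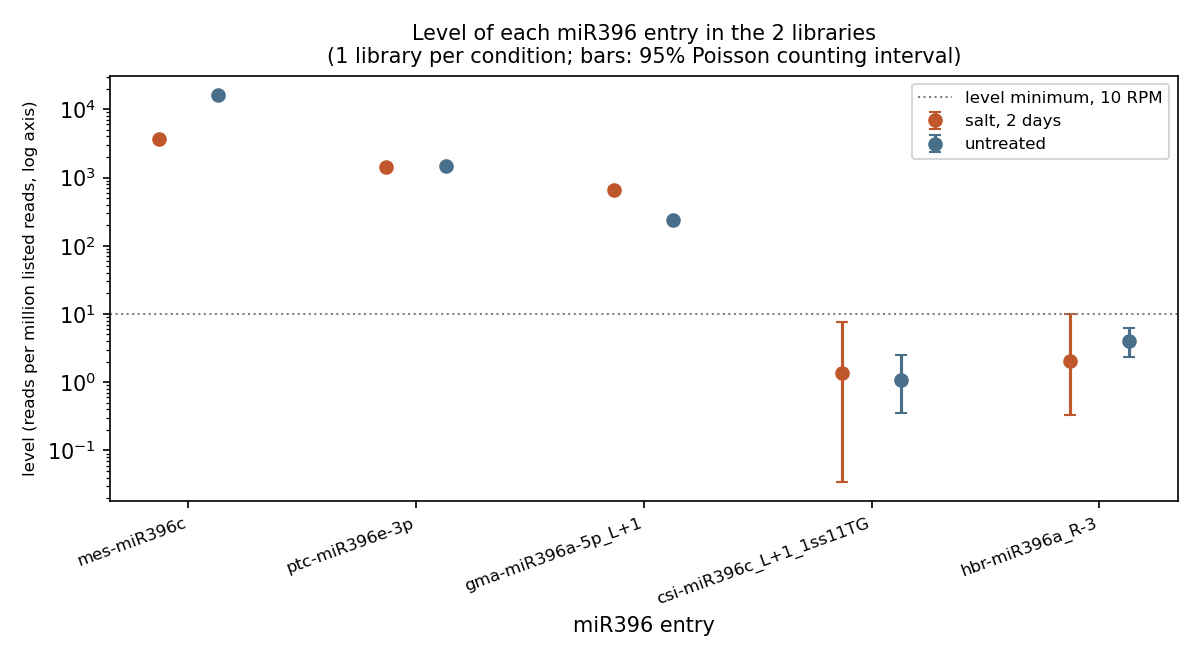
Level of each miR396 entry in RPM, on a log axis, in the salt library (left point of each pair) and the untreated library (right point). Bars are 95% Poisson counting intervals and the dotted line is the level minimum of 10 RPM. mes-miR396c sits at 3621 RPM in the salt and 16014 RPM in the untreated library, while ptc-miR396e-3p sits at 1421 and 1487 RPM.

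The level minimum of 10 RPM was reached by 3 of the 5 entries. Of these 3, 1 was lower in the salt library by 2-fold or more, where 13% of the 115 entries of all families at that level were lower. A further 1 of the 3 was higher by 2-fold or more, where 32.2% of the 115 were higher. The median log2 ratio of the 3 was -0.07, beside 0.33 over all 115. The sign of mes-miR396c was constant under all 6 scalings, with a log2 ratio between -3.12 and -1.92, and that of gma-miR396a-5p_L+1 was constant between 0.53 and 1.72.

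The make-up of the family does not depend on how libraries are scaled, because each entry is set against its own relatives in the same library. The 3p entries took 24.9% of miR396 reads in the salt library (Clopper-Pearson 95% interval 23.6 to 26.2) and 8.39% in the untreated library (8.20 to 8.58). This direction rests on mes-miR396c, and without it the 3p share turns round, to 68.1% in the salt and 86.2% in the untreated library. All 3 of the 5p entries hold parts of reads, and how shared reads were divided between them is not known, so values within the 5p reads depend on that division. Within the 5p reads, gma-miR396a-5p_L+1 took 15.5% in the salt library (14.3 to 16.8) and 1.45% in the untreated library (1.36 to 1.53). mes-miR396c outnumbered this longer variant by 5.44 to 1 in the salt library (4.93 to 5.998) and by 68.2 to 1 in the untreated library (64.2 to 72.4). The 18-base hbr-miR396a_R-3 took 0.0635% of 5p reads in the salt library (0.00770 to 0.229) and 0.0240% in the untreated library (0.0142 to 0.0379), intervals that overlap. These shares use counts rounded to whole reads, which raised the 1.5 estimated salt reads of hbr-miR396a_R-3.

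**Figure D2:**
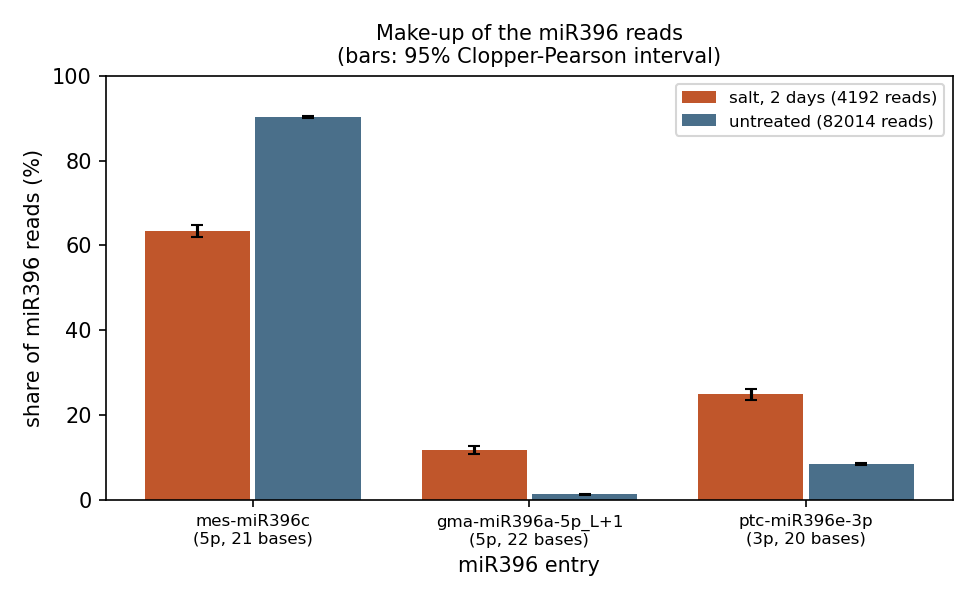
Share of all miR396 reads, in percent, taken by the 3 abundant entries in the salt library (left bar of each pair) and the untreated library (right bar), with 95% Clopper-Pearson intervals. mes-miR396c holds 63.4% in the salt and 90.3% in the untreated library, gma-miR396a-5p_L+1 holds 11.7% and 1.32%, and ptc-miR396e-3p holds 24.9% and 8.38%.

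The arms of the shared hairpin were compared directly. mes-miR396c exceeded ptc-miR396e-3p by 2.55 to 1 in the salt library (2.37 to 2.74) and by 10.8 to 1 in the untreated library (10.5 to 11.0). On the log2 scale the ratio of major to minor arm was 2.08 lower in the salt library (-2.08). Shifts of 2-fold or more were common among hairpins with 1 listed entry per arm, the only ones compared. These include the hairpin of peu-MIR2916-p5_1ss5AG, set elsewhere here among the possible rRNA or tRNA fragments. Of 26 hairpins with both arms at 10 RPM, 9 (34.6%) had a ratio lower by 2-fold or more in the salt library and 5 (19.2%) a ratio higher by as much, and the median change was -0.42. miR396 was at place 4 from the lowest, between the hairpin of nta-miR164a and its 3p partner at -2.21 and the hairpin of aly-miR172a-3p at -2.04.

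**Figure D3:**
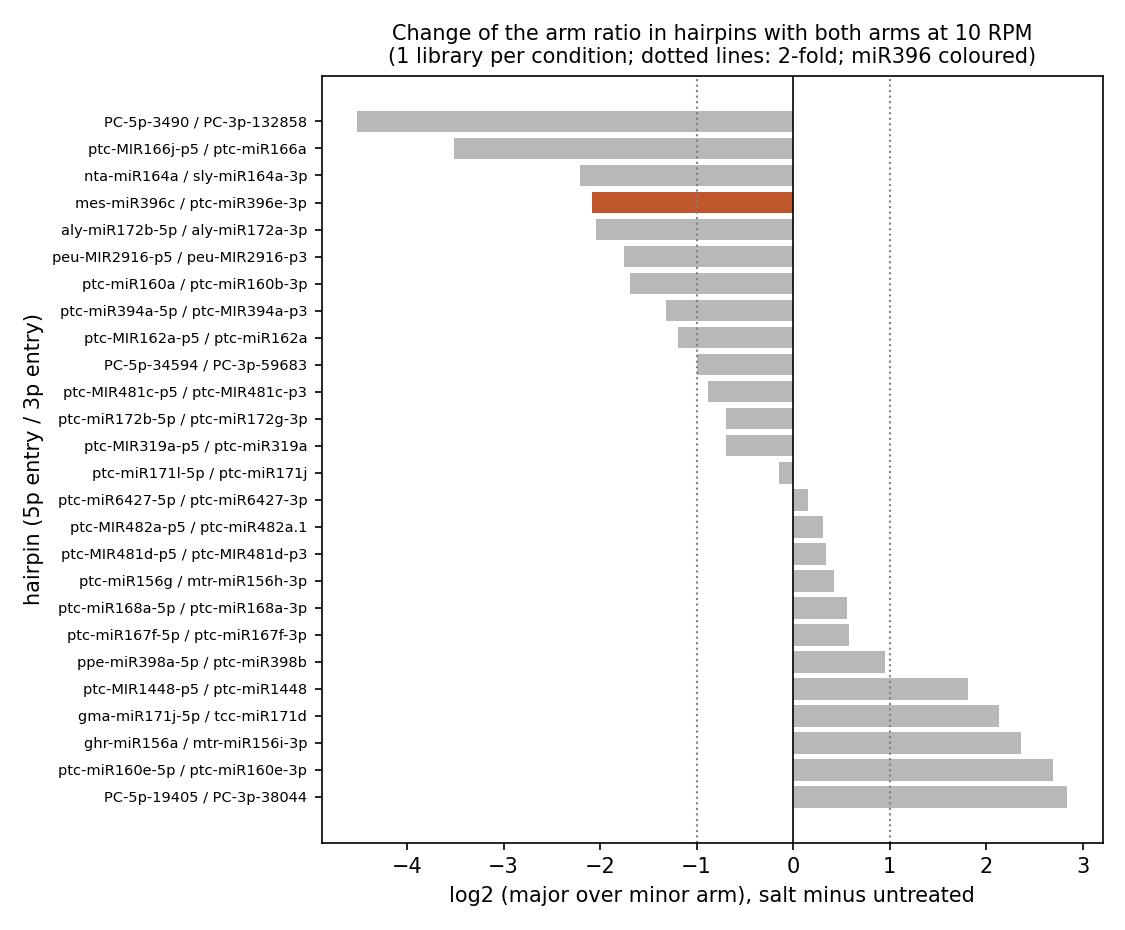
Change of the log2 ratio of the major to the minor arm, salt minus untreated, for 26 hairpins with both arms averaging 10 RPM or more, 1 bar per hairpin, with dotted lines at 2-fold. The coloured bar of miR396 reaches -2.08, at place 4 from the top.

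By log2 ratio on RPM + 1, the entries of other families closest to mes-miR396c (-2.14) were nta-miR397_L+2, a laccase regulator, at -1.92, and the miR159 entries cpa-miR159a_R-1 and ptc-miR159a_R-1, both at -2.59. These 2 names stand for 1 sequence with equal counts. Likeness here is the difference between 2 libraries only.

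In the degradome the growth-regulating factors held the sites with the most reads of this family. All reads come from 1 library of mixed RNA, so no site can be assigned to a condition. mes-miR396c had 10 listed pairs on 6 gene symbols. Its GRF1 site, at transcript position 589, had 47 raw reads, the most of any miR396 pair. The 2 sites in transcripts with the symbol GRF4 had 17 reads at position 659 and 9 reads at position 780. The symbols are as deposited, without transcript identifiers, and GRF is also a name used for 14-3-3 proteins; none of the 943 pairs of other families carried a GRF symbol. Among the 100 entries with a pair, mes-miR396c ranked at place 22 by its best site, and 138 of all 981 pairs (14.1%) had 47 reads or more.

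All 4 GRF pairs, counting that of hbr-miR396a_R-3, had an alignment score of 4. This is the highest value in the table, which starts at 0, and 324 of 981 pairs (33.0%) share it. In scores of this kind a higher value stands for poorer pairing, although the header does not say so. At the GRF sites the aligned stretch of transcript was 1 base longer than the miRNA, at 22 bases for the 21 bases of mes-miR396c. In Arabidopsis the pairing of miR396 with GRF messenger RNA is known to hold a bulged target base. An aligned stretch longer than the miRNA occurred in 10 of the 38 miR396 pairs (26.3%), on GRF1, GRF4, EBP1, CRD1 and CHLN, and in 68 of 943 pairs of other families (7.21%). Pairs on related transcripts share sequence and are not independent. A limit on the score of at most 3 would remove every GRF site of this family.

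Outside the GRFs, mes-miR396c had 6 reads on PFC1, an rRNA-modifying enzyme of chloroplasts in Arabidopsis, and 3 on DRB3, a double-stranded RNA-binding protein. It also had 1 read at each of 5 sites in RD21A and RD21B, papain-like cysteine proteases known in Arabidopsis from drought responses. ptc-miR396e-3p had a single pair, with 1 read on RBL20, a rhomboid-like protein. No pair was listed for gma-miR396a-5p_L+1 or csi-miR396c_L+1_1ss11TG. The variant that was higher in the salt library was thus without a listed cleavage site. No listed pair had a score above 4, which the GRF1 and GRF4 pairs of mes-miR396c already held. A missing pair therefore does not show that cleavage is missing.

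The rare 18-base hbr-miR396a_R-3 had the most pairs, 27 of the 38, on 11 symbols. A shorter sequence has fewer bases that can count against its score, so numbers of pairs do not compare the cutting by entries of different length. The pairs with 7 reads, the most for this entry, were on RD21A, RD21C and GCP1. RD21A had 3 sites with 4 to 7 reads, RD21B had 4 sites with 4 reads each, RD21C had 2 pairs with 7 reads each, GCP1 had 1 site with 7 reads, and Os04g0650000 had 4 sites with 4 reads each. Its other pairs were EBP1, a growth regulator in Arabidopsis, with 5 reads at each of 2 sites, GLT1, a glutamate synthase, with 2 reads, and CNOT3, a subunit of the deadenylase complex CCR4-NOT, with 1 read at each of 4 sites. CRD1 had 1 read at each of 3 sites, and CHLN, GRF1 and 1 pair without a symbol had 1 read each. Of the symbols, 3 were shared with mes-miR396c, which is 50% of the symbols of mes-miR396c and 27.3% of those of hbr-miR396a_R-3. Every base of hbr-miR396a_R-3 lies within mes-miR396c, so the symbols of these entries are not independent.

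The deposited signal headed TPB was 52.7 per read at the GRF1 site and at the GRF4 site with 9 reads, and no pair in the table exceeded this. At the 10 sites with 4 reads, all in RD21A, RD21B and Os04g0650000, it was 5.27 per read, 10 times lower. At the 4 pairs with 7 reads it was 13.2 per read, 4 times lower. In these 2 groups, and at the 2 EBP1 sites, where the signal per read was 2 times lower, the number of listed sites equals the factor. At the other sites with a lower signal per read it does not. The 5 RD21 sites of mes-miR396c with 1 read had a factor of 10, the 7 sites of CNOT3 and CRD1 a factor of 6, the GLT1 site 4.62, the DRB3 site 2 and the GRF4 site with 17 reads 1.42. The sources used here do not say how the signal was made. In units of 52.7, the signal summed to 97.6 reads over the 38 pairs, in place of 178 raw reads. Of the 97.6, GRF pairs held 69 reads (70.7%) and RD21 pairs 8.15 reads (8.35%). Of the 178 raw reads, GRF pairs held 74 and RD21 pairs 50, so the gap between them depends on the weighting. By raw reads, with each symbol and position counted once, GRF sites held 74 of 170 reads, or 43.5%. That count may merge sites on different transcripts with the same symbol, and over all listed pairs the GRF share was 41.6%. Some reads may be listed at several sites, so no interval is given for this share.

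**Figure D4:**
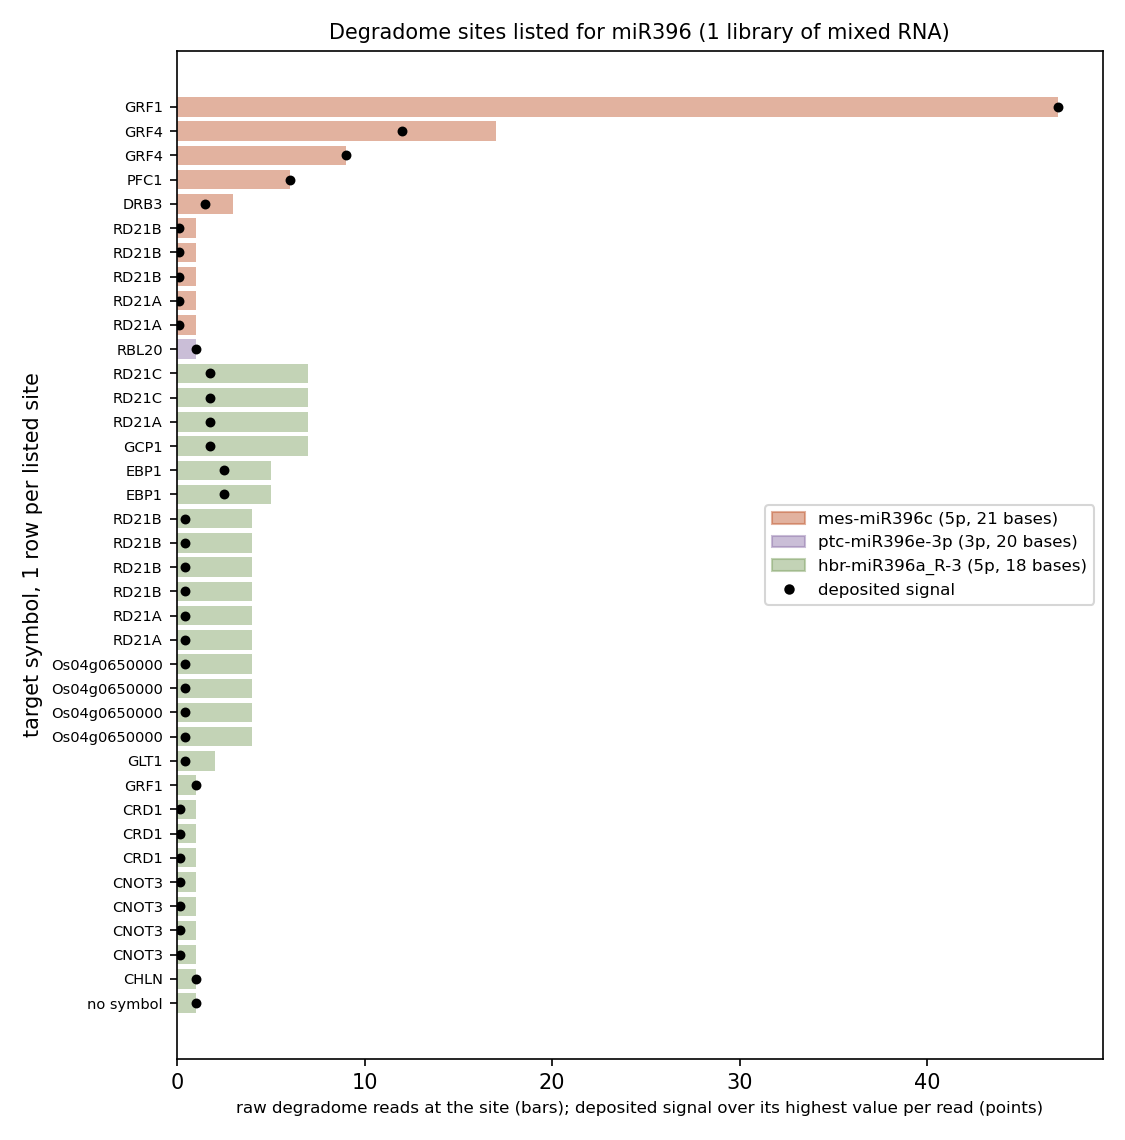
Raw degradome reads (bars) and deposited signal divided by its highest value per read (points) at each of the 38 listed miR396 pairs, 1 row per pair, coloured by miRNA entry. The GRF1 bar of mes-miR396c reaches 47 with its point at the bar's end, while the 10 bars of 4 reads have points at 0.4.

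The 5′ ends of mes-miR396c and hbr-miR396a_R-3 lie 3 bases apart. A listed cleavage position is counted from the end of the aligned stretch, so on stretches with the same symbol and the same start the positions of the 2 entries differ by 3 bases by construction, and only the reads at each position are measured. On GRF1 the position of the 21-base entry, 589, had 47 reads, and that of the 18-base entry, 586, had 1. Of the 48 reads at these 2 listed positions, the 18-base position held 2.08% (0.0527 to 11.1). On the 5 shared RD21A and RD21B stretches the order was the other way, with 1 read at the 21-base position and 4 reads at the 18-base position, or 80% of 5 reads (28.4 to 99.5). The 5 stretches carry equal counts and equal signal per read, so they were read as 1 observation of 5 reads and not as 5. Only stretches listed for both entries were compared, so sites with reads at 1 of the positions alone did not enter. The RD21 reads also had a deposited signal per read 10 times below the highest. Whether GRF1 and RD21 differ in the position of the cut was not tested. Reads elsewhere on these transcripts were not analysed here.

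**Figure D5:**
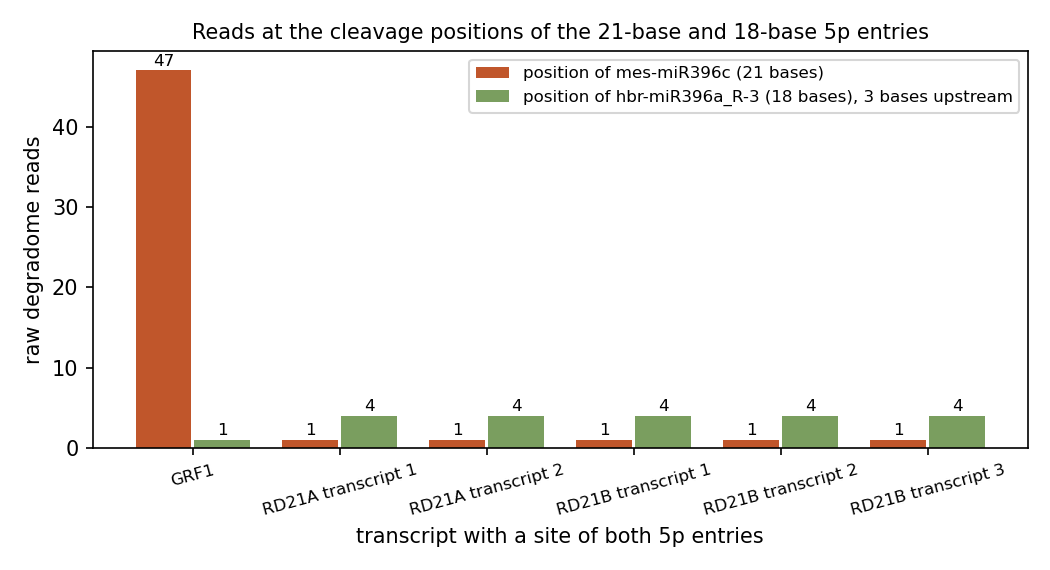
Raw degradome reads at the listed position of mes-miR396c (left bar) and of hbr-miR396a_R-3, 3 bases upstream (right bar), on the 6 aligned stretches that both entries share. GRF1 has 47 and 1 reads, and each of the 5 RD21 stretches has 1 and 4.

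The wider pathway was looked up by symbol over the pairs of all families. Of 12 GRF symbols, GRF1 and GRF4 had a pair, and of the GIF co-activators, looked up under 4 symbols, 0 had one. Of 5 TCP symbols, TCP2, TCP3 and TCP4 had 36 pairs in all, each of a miR319 entry and with 4 to 29 reads. The 12 TCP3 pairs and the 1 TCP4 pair all had 29 reads. Some reads may be listed at several of these pairs, so their number does not count separate cuts. bHLH74, another known miR396 target in Arabidopsis, had none. The upstream family, miR319, had 13104 RPM in the salt and 21045 RPM in the untreated library. Its share was 1.61-fold lower in the salt library (1.57 to 1.64), short of the 2-fold limit used for entries. Other scalings are not given here for miR319. Its main strand ptc-miR319a had 12854 RPM in the salt and 20793 RPM in the untreated library. The partner strand ptc-MIR319a-p5 had 249.3 RPM in the salt and 249.6 RPM in the untreated library. At this scaling the lower share thus lay with the main strand, as in the miR396 hairpin. The miR319 change in arm ratio was smaller, at -0.69 log2 beside -2.08 for miR396. Of the 26 hairpins, 14 had a lower ratio of major to minor arm in the salt library. A lower ratio of any size is thus not particular to these families.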

How the data were processed

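Total RNA was column-purified and DNase-treated, and Illumina's standard small RNA protocol was used, per the labels' protocols. The tools that trimmed, mapped and called the reads are not given in the sources used here. For every mature sequence, the authors deposited estimated counts of reads, headed raw. Parts of reads appear in 68 of 205 entries, among them the 3 miR396 5p entries. Columns named 0 and 2 days were matched to samples by title. The length of the mature sequence is another deposited value. The degradome table holds raw counts of reads per site, an alignment score and a signal headed TPB, per the file headers.

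Counts were divided by the listed total of 734026 reads (salt) or 4622984 (untreated) and multiplied by 1000000 (RPM); the listed total is not the library's full depth. Log2 ratios used RPM + 1, and 2-fold was the limit, at a mean of at least 10 RPM. Intervals are exact 95% conditional binomial, Clopper-Pearson or Poisson, on counts rounded to whole reads, computed with scipy 1.17.1, pandas 2.3.3 and Python 3.11.15. PCR copies are not independent molecules. The ratio and interval steps were tested on simulated data. Arms follow the name, or else the longest stretch shared with a named arm. Entries and symbols named are all those of miR396, plus the 3 entries of other families with the closest ratio. Members, lists and alternatives were chosen with earlier results of these data known. In the count of distinct sites, RD21B position 519 of both entries counts once. Its stretch starts at 511 for hbr-miR396a_R-3 and at 508 for mes-miR396c, so these may be sites on different transcripts. Alternatives covered 5 other scalings, pseudocounts, level minimums, fold limits, and limits on degradome reads and score.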

Additional observations from a re-analysis of the deposited data

How the results depend on the processing

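No paired analysis was possible because each condition has 1 library. The log2 ratio of the miR396 sum, -1.64 with the listed total, was -1.41 when possible rRNA or tRNA fragments were left out, -1.81 when each sequence counted once, -1.98 by the median ratio, -2.02 without miR159 and -2.61 without the 5 most abundant entries. It was -1.92 for 5p entries alone, -0.065 for 3p entries alone, and it turned to 0.28 without mes-miR396c. Pseudocounts of 0.1 and 5 changed no direction. ptc-miR396e-3p turned to 0.15 without possible rRNA or tRNA fragments. The count of higher entries was 0 without the 5 most abundant entries and 0 at 4-fold, and that of lower entries was 3 without the 5 most abundant, in place of 1 each. These 3 were mes-miR396c, ptc-miR396e-3p and the rare hbr-miR396a_R-3. The last passed the level minimum only at this scaling, with 5.61 RPM in the salt and 21.4 RPM in the untreated library. gma-miR396a-5p_L+1 kept a ratio of 0.53 log2 there. The share of all entries past 2-fold at this scaling is not given here. Leaving out mes-miR396c reversed the direction of the 3p share, at 68.1% in the salt and 86.2% in the untreated library. Of 38 degradome pairs, 22 had at least 2 reads, 10 at least 5, 9 a score of at most 3 and 0 a score of at most 2. The GRF share of reads was 0% at a score of at most 3, 66.4% at 5 reads or more, and 70.7% with reads weighted by the deposited signal, an alternative chosen after seeing the data. Beyond alternatives that drop entries, pairs or samples by construction, the cause was not tested.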

Other observations

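Of the 15 symbols with a miR396 pair, 1 also had a pair with an entry outside the family. GLT1 was listed at position 3329 for hbr-miR396a_R-3 and at position 3459 for the predicted entry PC-5p-34123_123, with 2 reads at each. Among the 38 miR396 pairs 16 had 1 read. The 7 pairs on CNOT3 and CRD1 had a deposited signal of 8.78 per read, 6 times below the highest, although 4 and 3 sites were listed for these symbols.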
